A study of Mus musculus with 31 samples.

Results

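The strongest autosomal hotspot of meiotic DNA breakage lay inside Gabrb1 in B6 mice, inside Epc1 in C3H mice, beside Tpd52 in CAST mice, beside Mex3c in MOL mice and inside Klf5 in PWD mice. These 5 genes, of 20665 autosomal protein-coding genes, and the 5 places that name them, are described here. The members were chosen by the deposited strength score of the inbred lists, as the hotspot with the highest score on chromosomes 1 to 19 of each list and the protein-coding gene that holds its centre or, failing that, ends closest to it. The inbred scores are therefore given as a description. In the other lists, a place counted as present where a hotspot centre lay under 400 bp from it. Of the 414683 hotspots in all 26 lists, 17 fell on the Gabrb1 place, 9 on the Epc1 place, 6 on the Tpd52 place, 7 on the Mex3c place and 7 on the Klf5 place.

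Breaks had been located in testes of mice by DMC1 SSDS, in which DNA bound by the recombinase DMC1 is precipitated with an antibody and its single-stranded part is sequenced. There were 19 F1 cross lists, 6 inbred lists and 1 Prdm9 knockout list, each from 1 library, so no genotype has a replicate. Crosses are written mother first (f) and father second (m). Parents were B6 (C57Bl/6J, in 10 crosses), C3H (C3H/HeJ, in 6), 13R (B10.F-H2pb1/(13R)J, in 5), CAST (CAST/EiJ, in 5), MOL (MOLF/EiJ, in 6) and PWD (PWD/PhJ, in 6), and the knockout was B6;129P2-Prdm9<tm1Ymat>/J. The sources used here give no age, pooling of animals or read depth, and list lengths ran from 10445 to 30929 hotspots. The series text reports that a sample was withdrawn because its label wrongly named a cross of CAST with 13R, and the accession it cites is that of the CAST list, so CAST values assume that the present label is right. The lists hold no expression values, so the tissue could not be checked against markers. A single library stood apart at C3H hotspots. CASTfXMOLm, with no C3H or B6 parent, had a hotspot at 81 of the 100 strongest autosomal C3H hotspots after the first, against 0 to 31 in the other 12 crosses without C3H. Its median percentile over all 100, with absent hotspots set to 0, was 9.72. Over all autosomal C3H hotspots CASTfXMOLm had 2.66%. The other crosses with neither C3H nor B6 had 0.800% (MOLfX13Rm) to 0.990% (PWDfXCASTm). Crosses with B6 but not C3H had 4.48% (B6fX13Rm) to 14.4% (PWDfXB6m).

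In mice, PRDM9 binds DNA through an array of zinc fingers and methylates histones beside its binding site, and most meiotic breaks are then made there. The zinc-finger array differs between strains, so strains break their chromosomes at different places. DMC1 coats the single-stranded ends that resection leaves at a break. Where PRDM9 is missing, breaks are known to move largely to promoters and other sites that carry the same histone mark.

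Strength is given as a percentile among the autosomal hotspots of the same list, where 100 is the strongest and an absent hotspot is set to 0, or as a percentage of the summed strength of the autosomal hotspots of the list. Raw scores are compared only within a list. Coordinates are on mm10.

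The B6 place was chr5:71870110-71874145, inside Gabrb1, which encodes a beta subunit of the GABA-A receptor, the chloride channel opened by the inhibitory transmitter GABA. It lay 214206 bp from the lower end of this gene of 491652 bp (gene ID 14400), and the nearest other gene ends were those of Gabra4, 213819 bp away, and Commd8, 284449 bp away. Its score was 264.512 and that of the next autosomal hotspot of B6, on chromosome 16, was 256.587. The C3H place was chr18:6437363-6445038, inside Epc1 (gene ID 13831), a scaffold subunit of the NuA4/TIP60 histone acetyltransferase complex. It lay 5249 bp from the lower end of a gene of 80158 bp, with the nearest other gene ends 199676 bp away at Kif5b and 162429 bp away at 4921524L21Rik. Its score was 173.233 and that of the next C3H hotspot was 157.374.

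The CAST place was chr3:9026456-9030889 and lay outside any protein-coding gene, 23279 bp above the upper end of Tpd52 (gene ID 21985) and 221895 bp from Zbtb10. Tpd52 encodes a coiled-coil adaptor protein that is often amplified in human carcinomas. The place scored 355.958, and the next CAST hotspot scored 336.742. The MOL place was chr18:73443146-73447381, also outside genes, 127374 bp below Mex3c (gene ID 240396), an RNA-binding ubiquitin ligase, and 1094035 bp from Dcc on the other side. It had the widest gap to the next hotspot of its list among the 5 places, with scores of 189.69 and 154.792. The PWD place was chr14:99306091-99310216, inside Klf5 (gene ID 12224), a zinc-finger transcription factor of the Krüppel-like family. It lay 5259 bp from the upper end of this short gene of 14722 bp, with Pibf1 53254 bp and Klf12 558028 bp away, and scored 238.166 against 222.654 for the next PWD hotspot.

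On all chromosomes, sex chromosomes included, the places ranked 34 (Gabrb1), 28 (Epc1), 7 (Tpd52), 27 (Mex3c) and 40 (Klf5) in their own inbred lists, so every stronger hotspot was on X or Y. Each held between 0.0734% (Mex3c in MOL) and 0.112% (Tpd52 in CAST) of the autosomal summed strength of its list, which is 10.4 to 16.0 times the mean autosomal score. The hotspots were wide. The Gabrb1 place spanned 4036 bp in B6, where the median autosomal hotspot spanned 1744 bp, and the Epc1 place spanned 7676 bp in C3H, where the median was 2250 bp. The width percentile of the 5 places within their lists ran from 93.8 (Mex3c) to 99.6 (Epc1). The strongest 100 hotspots of each list were also wide, with median widths between 3864 bp in B6 and 6446 bp in C3H.

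The gene table used here gives gene ends without exons, so exonic and intronic positions are not stated. RefSeq promoter windows (250 bases before to 50 after an annotated start, GRCm38.p6) matched 1 of the 5 genes, Gabrb1, at 2 starts on the plus strand. They are shown because the Prdm9 knockout list had a hotspot over each of them, and of the 26 lists only that list did. Capitals mark CG, searched as the letters CG, which read the same on both strands.
Gabrb1 start 1, chr5:71657671-71657970: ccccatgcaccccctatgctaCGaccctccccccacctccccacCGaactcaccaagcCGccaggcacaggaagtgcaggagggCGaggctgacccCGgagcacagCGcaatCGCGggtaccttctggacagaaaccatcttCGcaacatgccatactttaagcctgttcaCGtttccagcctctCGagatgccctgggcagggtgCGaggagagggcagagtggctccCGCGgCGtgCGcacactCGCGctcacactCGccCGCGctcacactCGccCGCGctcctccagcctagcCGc
Gabrb1 start 2, chr5:71699682-71699981: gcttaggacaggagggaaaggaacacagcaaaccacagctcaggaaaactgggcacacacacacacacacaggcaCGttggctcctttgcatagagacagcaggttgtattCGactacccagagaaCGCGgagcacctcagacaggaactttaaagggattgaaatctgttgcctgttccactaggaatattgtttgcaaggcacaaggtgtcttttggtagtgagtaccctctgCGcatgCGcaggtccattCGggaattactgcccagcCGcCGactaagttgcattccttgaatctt
The first window held 25 CG (percentile 83.1 of 32851 promoter windows of this length) and the second 9 (percentile 56.5), where the median window held 7 and 94.6% of windows held the letters at least once. The strongest B6 place lay 214206 bp above the first start and 172195 bp above the second, in no window shown.

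**Figure D1:**
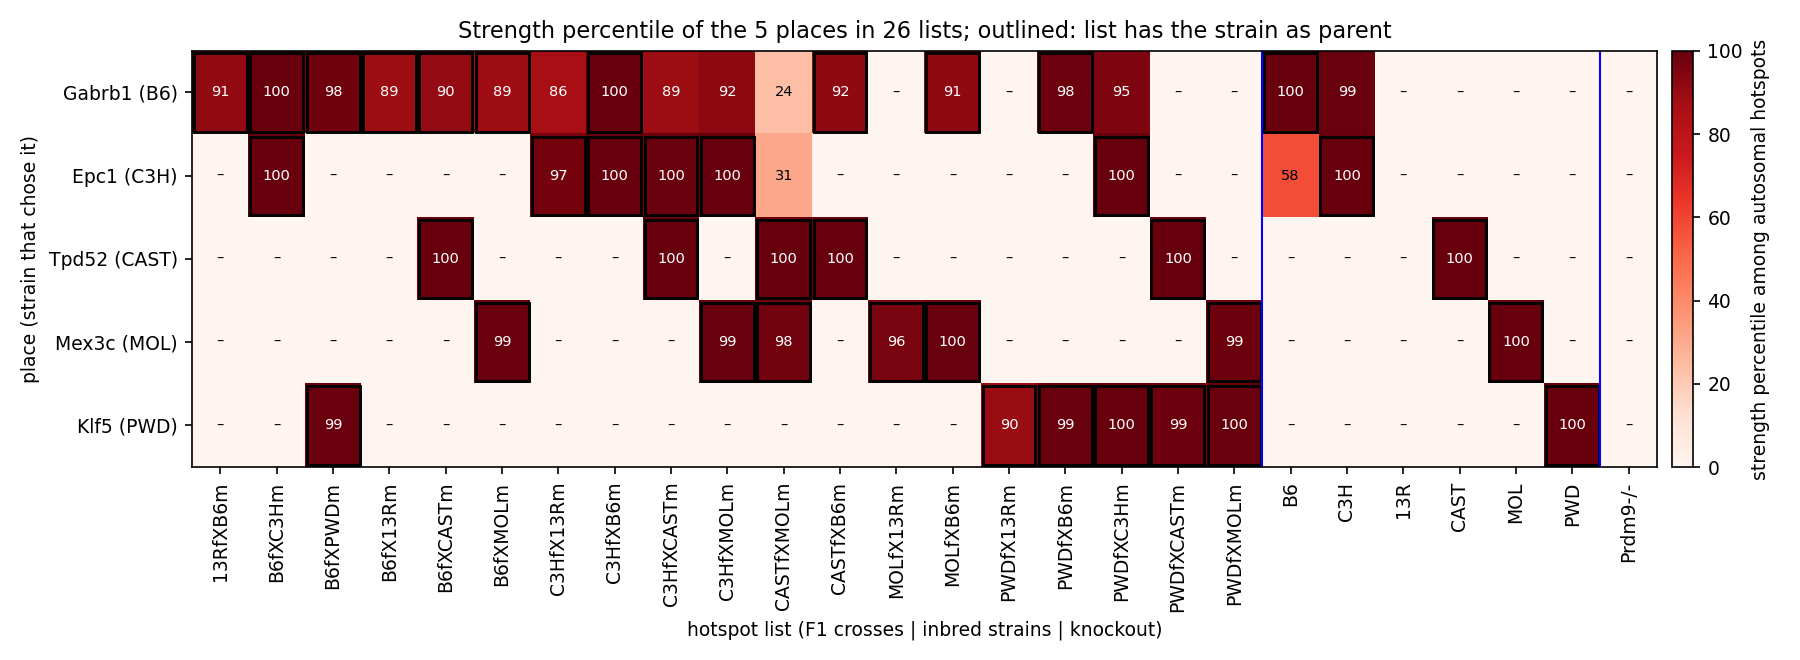
Strength percentile (colour, number in each cell, 0 to 100) of the 5 places, in rows, across 26 hotspot lists, in columns, with F1 crosses on the left, inbred lists in the middle and the knockout on the right. A dash marks a list with no hotspot under 400 bp away, and black outlines mark lists with the strain as a parent. Every outlined cell is filled, and outside the outlines the Gabrb1 place was present in 5 crosses and the Epc1 place in 1.

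The Gabrb1 place was a hotspot in all 10 crosses with a B6 parent. Its percentile ranged from 88.5 in B6fXMOLm to 99.9 in C3HfXB6m with a median of 91.5 in those crosses, against 0 to 95.1 (in PWDfXC3Hm) with a median of 24.0 in the 9 crosses without B6. The groups overlapped: 4 crosses without B6 lay between 86.4 and 95.1, CASTfXMOLm lay at 24.0, and MOLfX13Rm, PWDfX13Rm, PWDfXCASTm and PWDfXMOLm had no hotspot there. The mean was 93.8 ± 4.62 with a B6 parent (SD, n = 10) and 43.0 ± 46.0 without (SD, n = 9), a difference of 50.8 percentile points (two-sided exact permutation test, p = 0.00141, Benjamini-Hochberg adjusted p = 0.00485 over 88090 hotspots). Of the autosomal hotspots of B6, 13% were called higher by this rule, and of the strongest 100 after the first 93% were. The call was lost with 1 cross of each reciprocal pair (50.1 points, adjusted p = 0.107, exact permutation test) and when only presence was tested (10 of 10 crosses with B6 and 5 of 9 without, Fisher's exact test, adjusted p = 0.0824). Many crosses have a parent in common and are not independent, which neither this nor any other p-value over crosses takes into account.

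The 4 strong crosses without a B6 parent all had a C3H parent. In the C3H inbred list the same place ranked 100 of 13742 autosomal hotspots (percentile 99.3), with its centre 68 bp lower than in B6. Divided by both parents, the place lay at 99.8 and 99.9 in the 2 crosses of B6 with C3H, at 88.5 to 98.3 (median 91.3) in the 8 crosses with B6 and another strain, at 86.4 to 95.1 (median 90.7) in the 4 crosses with C3H and a strain other than B6, and at 0 to 24.0 in the 5 crosses with neither. This division was chosen after the values were seen. The share of summed strength had the same order, at 0.0578% and 0.0635% with both parents, 0.0163% to 0.0375% with B6 alone, 0.0131% to 0.0230% with C3H alone and at most 0.00215% with neither. Crosses with B6 alone and with C3H alone overlapped on either scale. Tested as a hotspot of C3H, the place averaged 93.8 in crosses with a C3H parent and 58.6 in crosses without (adjusted p = 0.145, exact permutation test, not called).

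All 6 crosses with a C3H parent had the Epc1 place among their strongest hotspots. The percentile was lowest in C3HfX13Rm (97.1, rank 439), had a median of 99.8 and was highest in PWDfXC3Hm (99.99, rank 2), against 0 in 12 of the 13 crosses without C3H and 31.0 in CASTfXMOLm. No cross with C3H reached down to a cross without it. In PWDfXC3Hm, no other hotspot that the C3H list also holds was stronger. The mean was 99.4 ± 1.13 with a C3H parent (SD, n = 6) and 2.38 ± 8.59 without (SD, n = 13), a difference of 97.0 points (exact permutation p = 3.69e-05, the smallest that 6 crosses against 13 allow, adjusted p = 0.000401). By the same rule 27.6% of the autosomal C3H hotspots were called higher, and 94% of the strongest 100 after the first.

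B6 also had a hotspot at the Epc1 place, 37 bp away, but a middling one, at percentile 57.6 and rank 7688. It was not found in the 8 crosses of B6 with a strain other than C3H. In 3 of those, 13RfXB6m, B6fXMOLm and MOLfXB6m, a weak hotspot overlapped the C3H interval with its centre 851 to 1592 bp higher, at percentiles of 5.87 to 15.4. Hotspots of that kind also occurred in MOLfX13Rm (percentile 6.10) and in the 13R inbred list (3.75).

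The Tpd52 place was the strongest or nearly the strongest autosomal hotspot of every cross with a CAST parent. It ranked 1 in CASTfXMOLm, 2 in B6fXCASTm, CASTfXB6m and PWDfXCASTm, and 6 in C3HfXCASTm, and it was absent from all 14 crosses without CAST. The mean percentile was 99.99 ± 0.0153 with a CAST parent (SD, n = 5) and 0 without (n = 14, exact permutation p = 8.60e-05, the smallest that 5 crosses against 14 allow, adjusted p = 0.000401). A call was made for 56.6% of the autosomal CAST hotspots and for 98% of the strongest 100 after the first. The place held 0.0609% of the summed strength in C3HfXCASTm, 0.0635% in PWDfXCASTm, 0.0940% in CASTfXMOLm, 0.107% in B6fXCASTm and 0.123% in CASTfXB6m. In 3 of the 5 crosses it was the strongest of all CAST hotspots found there. Hotspots centred about 1.2 kb lower (offsets of -1164 to -1314 bp) overlapped the interval in B6fXPWDm (percentile 52.5), PWDfXB6m (53.5), B6fXMOLm (19.8) and MOLfXB6m (18.9), which have no CAST parent, and in no inbred list.

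The Mex3c place was present in 6 of 6 crosses with a MOL parent, at percentiles of 96.3 in MOLfX13Rm, 97.6 in CASTfXMOLm, 98.8 in PWDfXMOLm, 99.0 in B6fXMOLm, 99.5 in C3HfXMOLm and 99.6 in MOLfXB6m, against 0 of 13 crosses without MOL. No hotspot of another list overlapped it. The mean was 98.5 ± 1.27 with a MOL parent (SD, n = 6) and 0 without (n = 13, exact permutation p = 3.69e-05, adjusted p = 0.000401), and 35.7% of the autosomal MOL hotspots and 96% of the strongest 100 after the first were called. In every cross the centre lay below that in MOL mice, by offsets of -68 to -205 bp. It stood among the MOL hotspots of a cross at ranks of 20 (MOLfXB6m) to 123 (CASTfXMOLm), and so was not the strongest MOL hotspot in any cross.

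The Klf5 place was present in 6 of 6 crosses with a PWD parent, at 89.6 in PWDfX13Rm, 98.8 in PWDfXCASTm, 99.0 in B6fXPWDm, 99.5 in PWDfXB6m, 99.6 in PWDfXMOLm and 99.9 in PWDfXC3Hm, against 0 of 13 crosses without PWD. PWDfX13Rm was low. The mean was 97.7 ± 3.98 with a PWD parent (SD, n = 6) and 0 without (n = 13, exact permutation p = 3.69e-05, adjusted p = 0.000401), with 26.7% of the autosomal PWD hotspots and 92% of the strongest 100 after the first called. The centres kept within -2 to 30 bp of the PWD centre. Among the PWD hotspots found in a cross the place ranked between 4 (PWDfXC3Hm) and 144 (PWDfX13Rm).

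**Figure D2:**
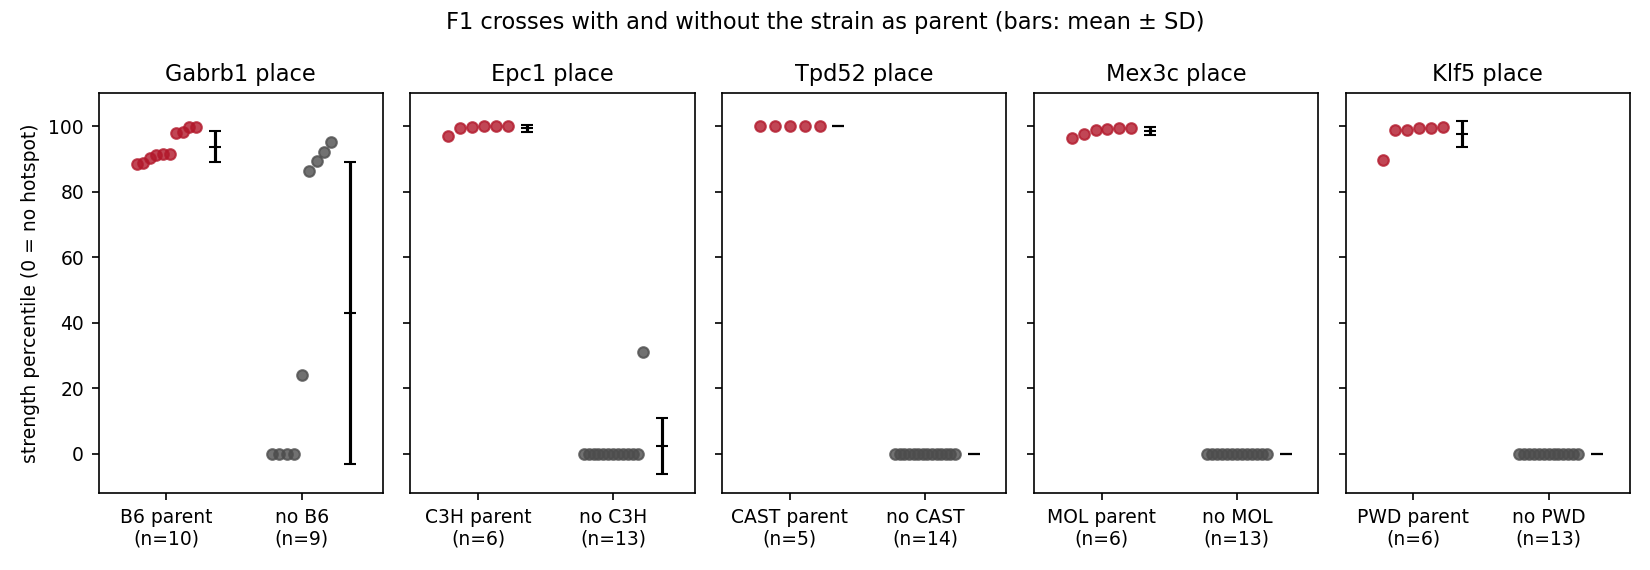
Strength percentile (vertical axis, 0 where no hotspot was found) of each place in the F1 crosses with the strain as a parent (left) and without it (right), 1 point per cross, with mean ± SD beside the points. The Gabrb1 groups overlap, with 4 crosses without B6 between 86.4 and 95.1, and in the other 4 panels the groups do not overlap.

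Without CASTfXMOLm the difference was 48.4 points at the Gabrb1 place (adjusted p = 0.0101), 99.4 at Epc1 (adjusted p = 0.000742), 99.99 at Tpd52 (adjusted p = 0.00140), 98.6 at Mex3c and 97.7 at Klf5 (adjusted p = 0.000742 each), all by the exact permutation test. Groups that did not overlap were seen at 4 of the 5 places. Among all autosomal hotspots of the same lists this was so for 10.7% (C3H), 41.8% (CAST), 19.5% (MOL) and 9.97% (PWD), and for 3.73% of B6 hotspots. The size of the difference at the place lay at the 95.7 percentile of all B6 differences for Gabrb1, 99.9 of C3H differences for Epc1, 100 of CAST differences for Tpd52, 99.9 of MOL differences for Mex3c and 99.99 of PWD differences for Klf5. The places were chosen as the strongest of their lists, and most hotspots in a list are weaker. The 100 hotspots after each had median differences of 69.9 (B6), 84.1 (C3H), 94.9 (CAST), 91.8 (MOL) and 73.1 (PWD). The Gabrb1 difference over all crosses, 50.8, was below the median of the 100 B6 hotspots after it. The differences at the other places were above the medians of the 100 hotspots after them.

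The places were next set beside the 100 strongest autosomal hotspots that follow them in the same inbred list. Among these, 92 to 100 were found in each cross with the strain as a parent, against medians of 7 (B6), 20 (C3H), 2 (CAST), 4 (MOL) and 14 (PWD) in crosses without it. The place was above their median percentile in every cross with its strain, that is in 10 of 10, 6 of 6, 5 of 5, 6 of 6 and 6 of 6 crosses. It stood above 67 to 95 of the 100 for Gabrb1, 89 to 100 for Epc1, 97 to 100 for Tpd52, 68 to 94 for Mex3c and 80 to 100 for Klf5. The lowest of these positions were in B6fXMOLm for Gabrb1 and in PWDfXMOLm for Mex3c.

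**Figure D3:**
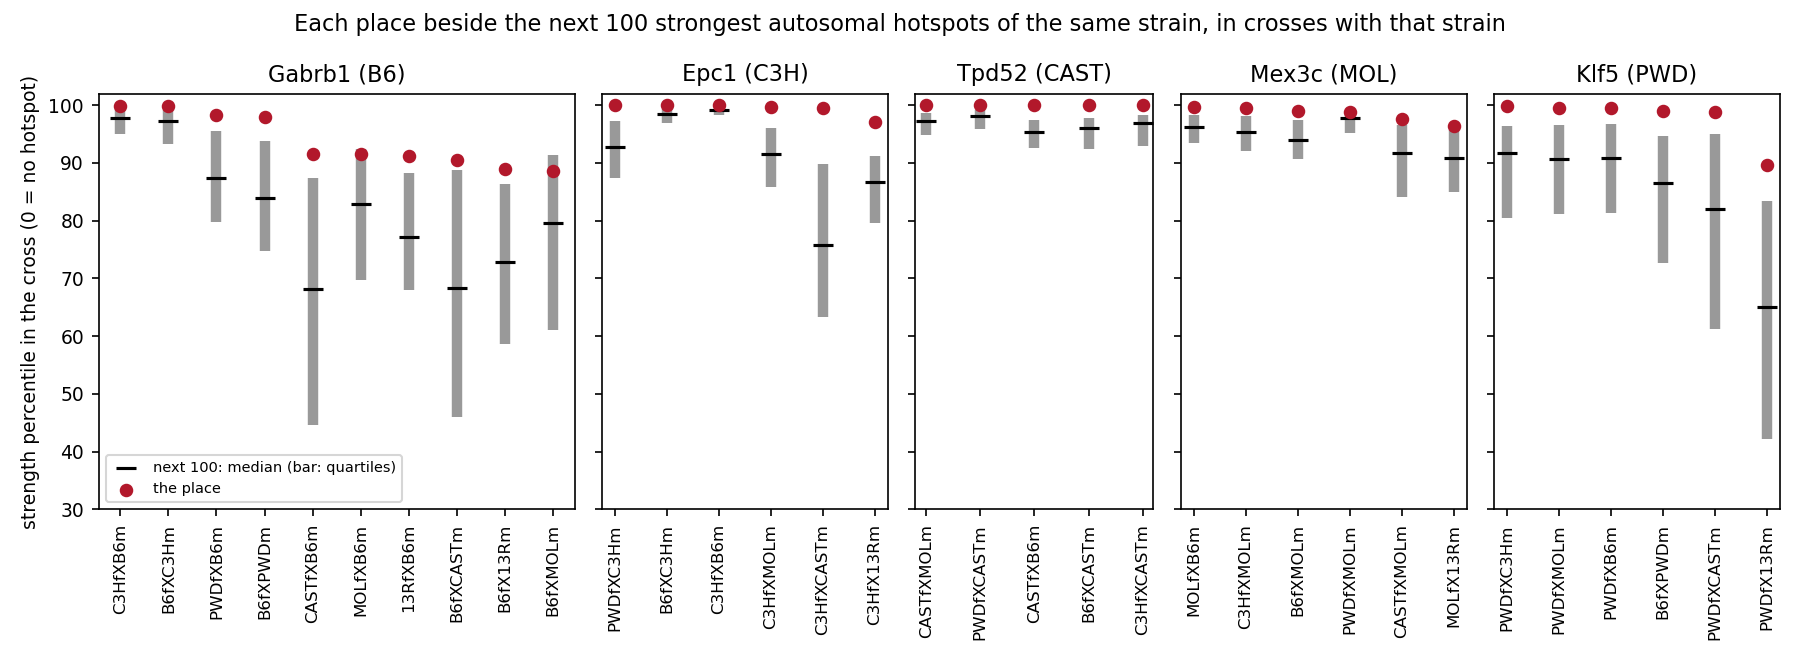
Strength percentile in each F1 cross with the strain as a parent (0 where no hotspot was found) of the place (red point) and of the next 100 autosomal hotspots of the strain (black line, median, and grey bar, quartiles), with crosses ordered by the value of the place. The red point lies above the black line in every cross shown, and below the top of the bar in B6fXMOLm and MOLfXB6m for Gabrb1 and in PWDfXMOLm for Mex3c.

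Strength at a place varied among the crosses that share its strain. The Gabrb1 place held 0.0635% of the summed strength in B6fXC3Hm and 0.0163% in B6fXCASTm. The Epc1 place held 0.0956% in PWDfXC3Hm and 0.0285% in C3HfX13Rm, and the Klf5 place held 0.0671% in PWDfXC3Hm and 0.0167% in PWDfX13Rm. With 1 library for each cross, these differences have no replicate check. Crosses with 13R gave the lowest percentile and the lowest share of the place at Epc1, Mex3c and Klf5. At Gabrb1, B6fX13Rm had the second lowest percentile (88.9) but a share of 0.0209%, above that of 5 other crosses with B6. The median percentile of the next 100 hotspots was also lowest with 13R for Klf5 (65.1 in PWDfX13Rm) and Mex3c (90.8 in MOLfX13Rm), but for Epc1 it was 86.7 in C3HfX13Rm and lowest in C3HfXCASTm (75.7).

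Reciprocal crosses were available for B6 with each other strain. With B6 as the mother the Gabrb1 place was at 88.9 (13R), 99.83 (C3H), 90.4 (CAST), 88.5 (MOL) and 97.9 (PWD), against 91.1, 99.89, 91.5, 91.5 and 98.3 in the same order with B6 as the father. All 5 pairs were lower with a B6 mother, with means of 93.1 for B6 mothers and 94.5 for B6 fathers and a difference of -1.38 ± 1.23 points (SD, n = 5 pairs). The exact sign-flip permutation p was 0.063, the smallest that 5 pairs allow. On the share of summed strength the sign turned, with 0.0303% for B6 mothers and 0.0298% for B6 fathers (exact permutation p = 0.75). In each pair the list with a B6 mother was the shorter one (for 13R, 9748 against 12448 autosomal hotspots). Percentiles depend on list length, and its part in the difference was not tested. The ranks of the place were 1087 (13R), 23 (C3H), 1376 (CAST), 1377 (MOL) and 275 (PWD) with B6 mothers. With B6 fathers they were 1107, 19, 1236, 1297 and 279, so ranks went both ways. At the other places the B6-mother and B6-father crosses had 99.95 and 99.94 (Epc1), 99.993 each (Tpd52), 99.0 and 99.6 (Mex3c) and 99.0 and 99.5 (Klf5).

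Summed over all hotspots inside the gene, Epc1 and Klf5 held more of the strength with the strain as a parent. Epc1 held 0.0672% ± 0.0362 in crosses with C3H (SD, n = 6) and 0.00771% ± 0.00981 without (SD, n = 13, exact permutation test over 10308 genes and 6 strains, adjusted p = 0.00169), and 5.67% of genes were called higher with C3H. Without its strongest place the sum was 0.00962% with C3H and 0.00752% without (adjusted p = 0.904, exact permutation test), and the number of hotspots in Epc1 was not called either (adjusted p = 0.404). Klf5 held 0.0410% ± 0.0180 in crosses with PWD (SD, n = 6) and 0 without (n = 13, exact permutation test, adjusted p = 0.00169), where 7.83% of genes were called higher with PWD. The strongest place was the only hotspot inside Klf5 in any cross. Mex3c held no hotspot in crosses with MOL and 1 in the others, in PWDfXB6m (percentile 5.08), and was not called (adjusted p = 1, exact permutation test), where 10.1% of genes were called higher with MOL.

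Gabrb1 as a whole was not called. Its hotspots summed to 0.0491% ± 0.0238 in crosses with B6 (SD, n = 10) and 0.0296% ± 0.0178 without (SD, n = 9), a difference of 0.0195 percentage points (exact permutation p = 0.0618, adjusted p = 0.350), where 3.22% of genes were called higher with B6. The hotspots other than the strongest place summed to 0.0190% with B6 and 0.0217% without. All 19 crosses had a hotspot in Gabrb1, with 2 to 5 in each cross with B6 and 3 to 7 in each without.

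These hotspots fell at different positions by strain, in 22 places along the gene over 26 lists. Offsets from the strongest place are given in kb, negative toward lower coordinates. B6 had another strong hotspot at -18.9 kb (rank 188, percentile 98.97), which was in 10 of 10 crosses with B6, at 39.2 to 82.8, and in 0 of 9 without (means 65.7 and 0, exact permutation test, adjusted p = 0.000401). C3H had its second hotspot in the gene at -142 kb (rank 394), in 6 of 6 crosses with C3H, at 74.7 to 97.8, and in 0 of 13 without (adjusted p = 0.000401, exact permutation test). PWD had a hotspot at 229 kb (rank 502, percentile 96.3), in 6 of 6 crosses with PWD and 0 of 13 without, and another at -143 kb, in 5 of 6 and 0 of 13. The C3H and PWD hotspots near -142 and -143 kb lay about 1 kb apart and each followed its own strain.

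Weaker hotspots inside Gabrb1 followed 13R at 154, 252 and 263 kb, each in 5 of 5 crosses with 13R and 0 of 14 without, and CAST at 42.6 and 104 kb, each in 5 of 5 crosses with CAST and 0 of 14 without. The MOL hotspot at -46.6 kb was found in 2 of 6 crosses with MOL (adjusted p = 0.180, exact permutation test). Leaving out the strongest place itself, where the C3H hotspot was not called, 13 hotspots of other strains lay inside Gabrb1 and 8 were called higher with their own strain, while of the 3 other B6 hotspots 1 was, where 35.9% of the autosomal hotspots of all 6 inbred lists were called.

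**Figure D4:**
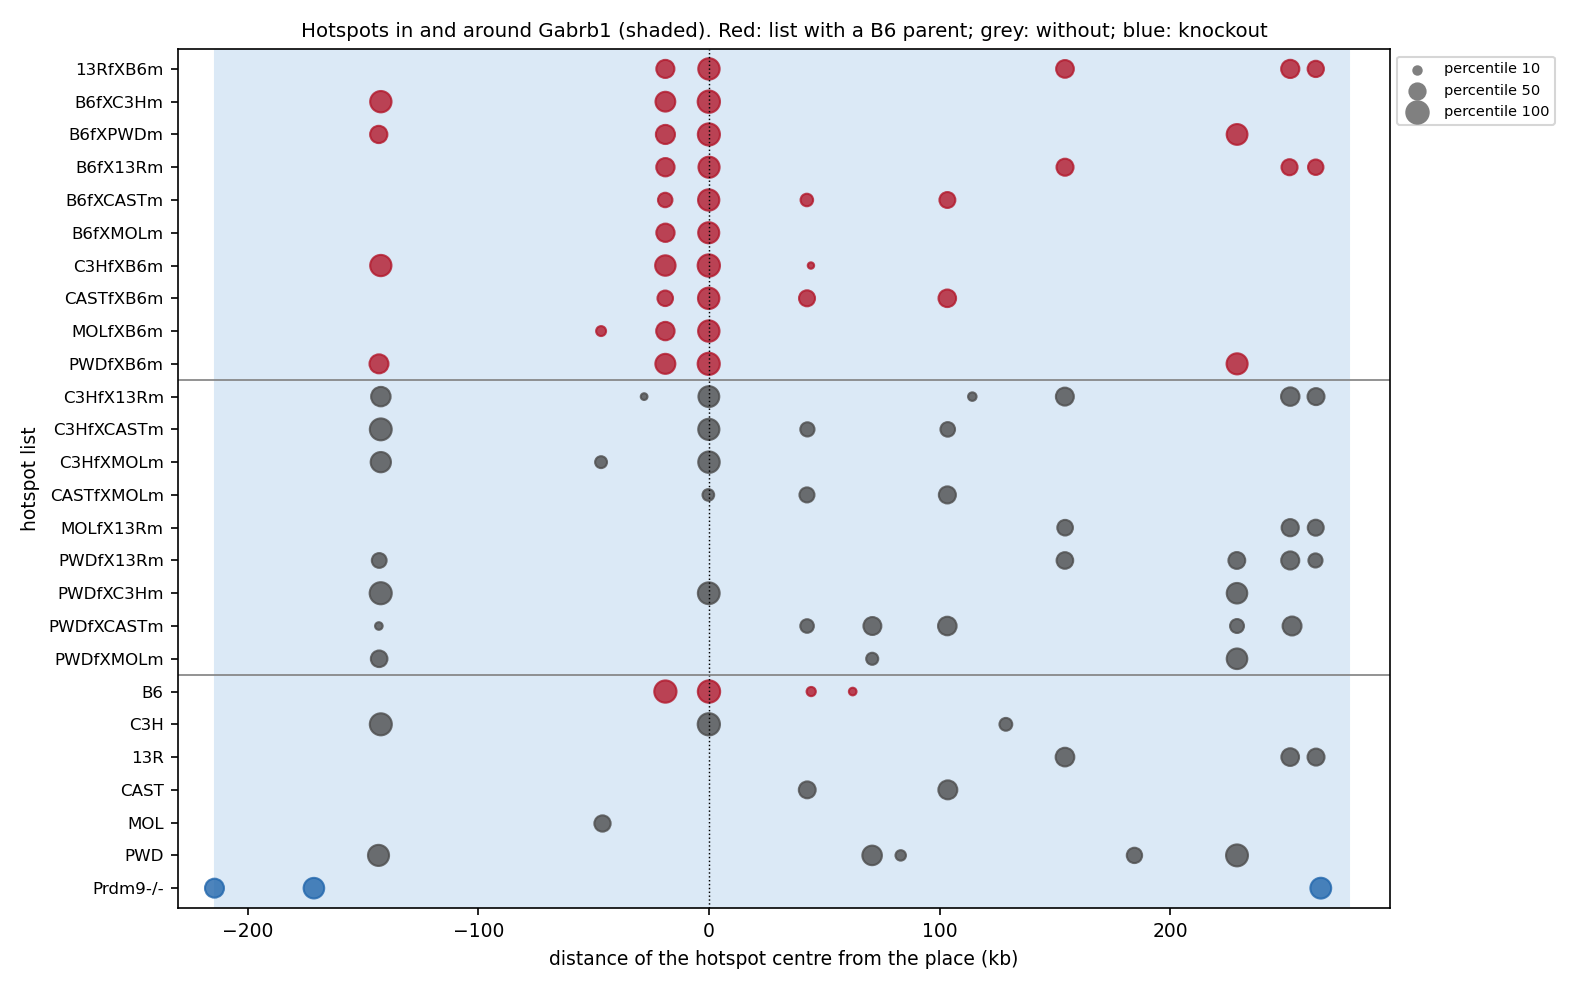
Hotspots in and around Gabrb1 (shaded) by distance of their centre from the strongest B6 place (horizontal axis, kb), in F1 crosses with B6 (top, red), F1 crosses without B6 (middle, grey), inbred lists and the knockout (bottom, B6 in red, other strains in grey, knockout in blue), with point area growing with strength percentile. Columns of points at 0 and -18.9 kb run through all 10 crosses with B6, and the column at 0 also holds 5 crosses without B6.

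In Epc1, PWD had a hotspot 14.5 kb above the C3H place (rank 298, percentile 97.8), which was in 6 of 6 crosses with PWD and 0 of 13 without (means 51.6 and 0, exact permutation test, adjusted p = 0.000401). Its percentile was 0.139 in PWDfX13Rm and 31.5 in PWDfXCASTm, and between 67.7 and 74.0 in the other 4. A place 27.2 kb above the C3H place was a hotspot in the same 6 crosses and in no inbred list. There the percentiles were 89.8 (B6fXPWDm), 54.9 (PWDfX13Rm), 91.9 (PWDfXB6m), 90.4 (PWDfXC3Hm), 85.3 (PWDfXCASTm) and 86.8 (PWDfXMOLm), while the nearest hotspot of the PWD inbred list was -12644.5 bp from it. A B6 hotspot in Epc1 at 12.5 kb, of percentile 87.2, was found only in the 2 of 10 B6 crosses that also have a C3H parent, and C3H has a hotspot of percentile 55.7 there. A stronger B6 hotspot at 52.7 kb (percentile 95.9) was found in the same 2 crosses only, at 50.6 (B6fXC3Hm) and 62.8 (C3HfXB6m). The C3H list has no hotspot there, and the cause was not tested.

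Tpd52 itself held no hotspot in the CAST inbred list. In crosses it held 0.0142% ± 0.00818 of the strength with a CAST parent (SD, n = 5) and 0.000588% ± 0.00150 without (SD, n = 14, exact permutation p = 0.00129, adjusted p = 0.0164), and 14.4% of genes were called higher with CAST. The call was lost when any of the 4 CAST crosses with a hotspot there was left out (adjusted p of 0.0506 to 0.0521, exact permutation test), with 1 cross of each reciprocal pair (adjusted p = 0.122) and for the number of hotspots (adjusted p = 0.0939). The strongest of these hotspots were at a place at -73.1 kb that no inbred list had, with percentiles of 89.5 (B6fXCASTm), 90.4 (C3HfXCASTm), 85.1 (CASTfXB6m) and 93.97 (PWDfXCASTm), and no hotspot in CASTfXMOLm. A further place in the gene at -85.8 kb was found in B6fXCASTm (62.1) and CASTfXB6m (62.2) and in no other list. Below the gene, at -138 kb, all 5 crosses with CAST and no other list had a hotspot, at percentiles of 46.9 to 88.8.

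Around the Tpd52 place, a CAST hotspot at 25.1 kb (percentile 93.4 in CAST) was in 5 of 5 crosses with CAST, at 77.7 to 84.8, and in 2 of 14 without, at 1.09 and 2.28. The hotspot at 71.8 kb was found in 16 lists, including CAST (91.6), MOL (65.1), 5 of 5 crosses with CAST and 9 of 14 without, and was not called for CAST (adjusted p = 0.408, exact permutation test). It was also in all 6 crosses with PWD, at 88.1 to 98.5, although the PWD inbred list had no hotspot there.

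**Figure D5:**
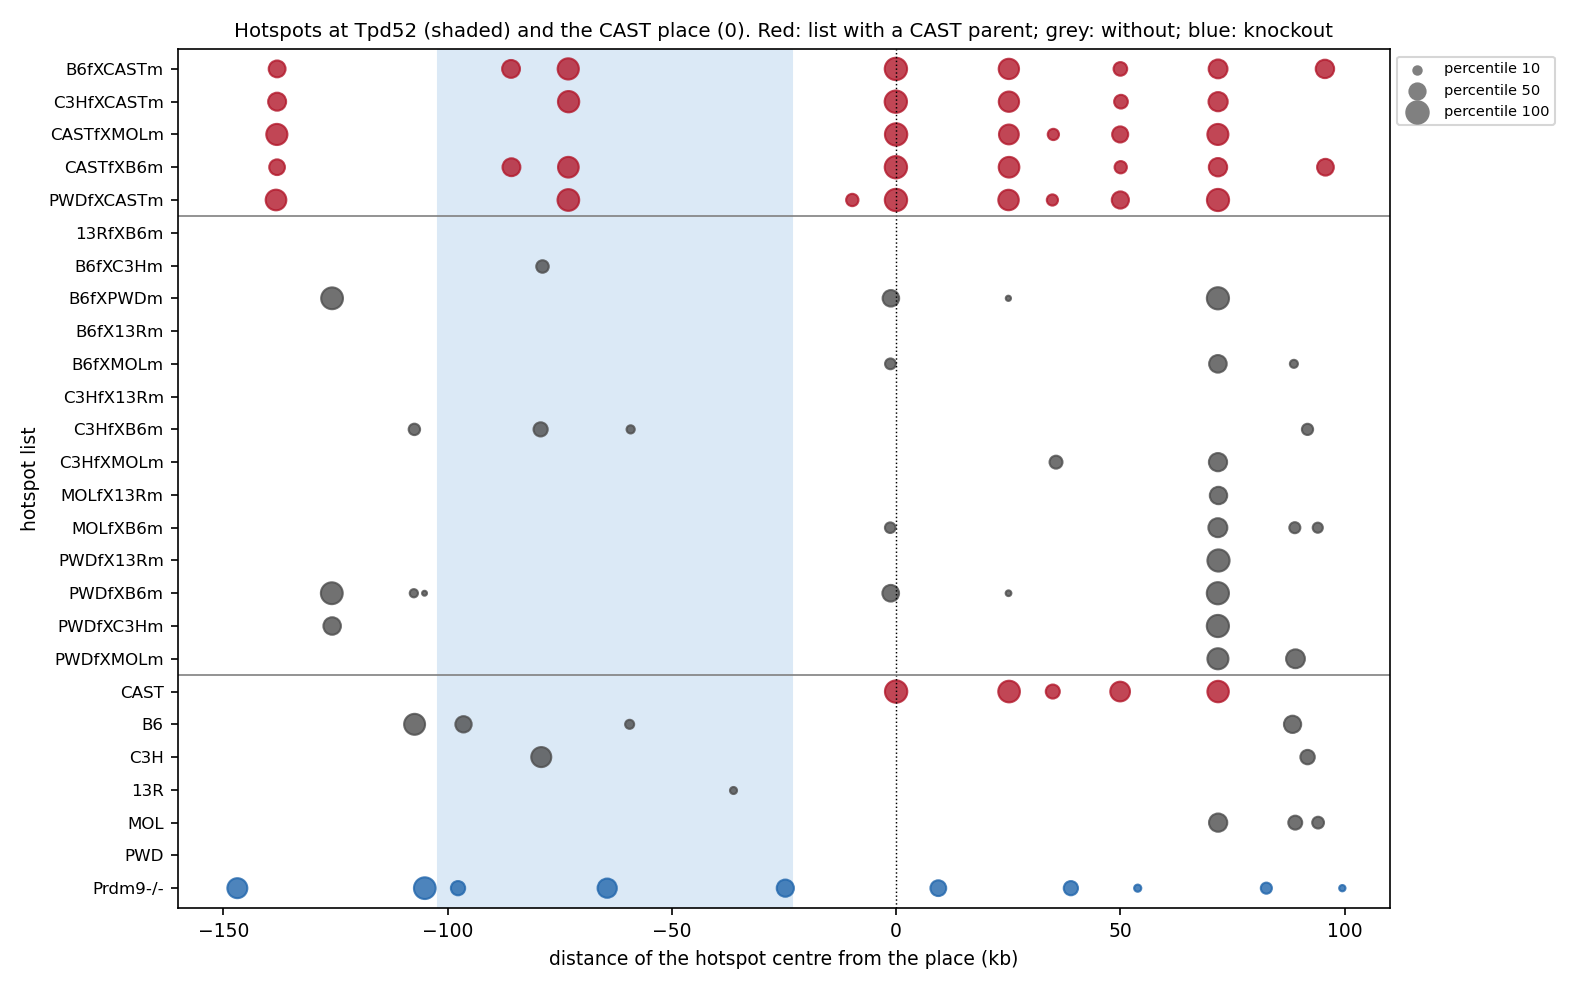
Hotspots near Tpd52 (shaded) by distance of their centre from the strongest CAST place (horizontal axis, kb), in F1 crosses with CAST (top, red), F1 crosses without CAST (middle, grey), inbred lists and the knockout (bottom, CAST in red, other strains in grey, knockout in blue), with point area growing with strength percentile. The places at -138 and -73.1 kb hold points from crosses with CAST but none from an inbred list.

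Near Mex3c, a PWD hotspot at 83.6 kb from the MOL place had the highest percentile of the inbred hotspots within 200 kb other than the place (rank 16 in PWD). It was in 6 of 6 crosses with PWD, at 75.03 to 97.7, and 0 of 13 without (adjusted p = 0.000401, exact permutation test). A place about -5.1 kb from the MOL place was at 98.2 in B6 and 4.57 in MOL. It was in 10 of 10 crosses with B6, at 18.9 to 91.2, and in 2 of 9 without (95.6 in CASTfXMOLm and 66.6 in PWDfXCASTm). Beside Klf5, a place at 9.4 kb, above the upper gene end, was at 99.2 in B6 and 98.3 in C3H and occurred in 14 lists. It was in 10 of 10 crosses with B6 and 2 of 9 without (means 91.9 and 11.7, adjusted p = 0.000401, exact permutation test). Tested as a hotspot of C3H, it was in 4 of 6 crosses with C3H and 8 of 13 without (means 50.5 and 55.5) and was not called. CAST had 4 hotspots within -70.1 to -47.2 kb of the Klf5 place, each in 5 of 5 crosses with CAST and 0 of 14 without.

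Places found in crosses, but in no inbred list and not in the knockout list, thus lay inside 4 of the genes. The share over all genes is not given here. There were 3 such places in Gabrb1, 2 in Epc1, 2 in Tpd52 and 1 in Mex3c. Those of Gabrb1 and Mex3c were each in 1 cross. Near Klf5, all 5 crosses with CAST had such a place at -131 kb, at percentiles of 46.3 to 69.9.

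The Prdm9 knockout list had a hotspot at none of the 5 places. The nearest knockout hotspot was -171247 bp from the Gabrb1 place, 49470 bp from the Epc1 place, 9406 bp from the Tpd52 place, -8860 bp from the Mex3c place and 4999 bp from the Klf5 place. At the gene ends, 4 of the 5 genes had a knockout hotspot centred within 1000 bp, where 51.6% of all autosomal protein-coding genes did, and 1 of 5 (Epc1) had a B6 hotspot there, where 2.94% of genes did. These were at -131 bp from the lower end of Gabrb1 (rank 8779 of 29991), 165 bp from the upper end of Epc1 (rank 367), 452 bp from the lower end of Mex3c (rank 471), and -24 bp and -260 bp from the lower and upper ends of Klf5 (ranks 2033 and 8554). At Tpd52 the nearest was -1419 bp from the upper end. The lower end of Gabrb1 (71657921) is the annotated gene start inside the first promoter window printed above, and the second window lay under a knockout hotspot of rank 4758. Gabra4 overlaps this end of Gabrb1, with its upper end at 71658308. The first window therefore also lies inside Gabra4, and the knockout hotspot of rank 8779 covers the ends of both genes.

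Genes with a hotspot of the same strain that behaved most like each place were found by the mean absolute difference in percentile over the 19 crosses. For Gabrb1 they were Trrap, the large adaptor subunit of NuA4/TIP60 (mean absolute difference 2.78, B6 rank 9), and Dlc1 (3.07, rank 30). The median over all other autosomal B6 hotspots, inside genes or not, was 67.4, and the medians below are taken likewise. The Trrap hotspot was, like the Gabrb1 place, in 5 of the 9 crosses without B6. For Epc1 they were Srpk2, a kinase of splicing factors (0.873), and Ttc39b (1.13), where the median was 30.3. For Tpd52 they were Gm40755 (0.150) and Ppp1r12a, a targeting subunit of myosin phosphatase (0.153), where the median was 22.5.

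For Mex3c they were Robo1, a receptor of axon guidance (0.103), and Tnfrsf21, a death receptor (0.183), where the median was 29.6, and for Klf5 they were Npc1, a cholesterol transporter of lysosomes (0.323), and Vps13b (0.351), where the median was 30.1. Several of these were far down their inbred list. The Tnfrsf21 hotspot ranked 8256 of 14585 in MOL but lay at 95.0 to 99.6 in the 6 crosses with MOL, and the Npc1 hotspot ranked 6425 of 13501 in PWD but lay at 88.0 to 99.4 in the 6 crosses with PWD.

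In the gene families of the members, 6 of 16 autosomal GABA-A receptor genes held a B6 hotspot (37.5%), where 25.1% of all autosomal protein-coding genes did. The family counts include the member itself where it holds its place, which the choice of members fixed. The receptor genes had a median length of 89621.5 bp, and all genes 17491 bp, and per 100 kb of gene the receptor genes held 0.369 B6 hotspots, against 0.961 over all genes. Gabrb2 had the strongest B6 hotspot of the family after Gabrb1 (percentile 89.1). Of the NuA4/TIP60 genes 5 of 18 held a C3H hotspot (27.8%, against 20.6% of all genes, and 1.67 hotspots per 100 kb, against 0.718). Besides Epc1, Trrap held a hotspot among the strongest 10% of C3H, at percentile 99.9. In the D52 family 1 of 3 genes, Tpd52l1, held a CAST hotspot (percentile 10.4), where 22% of all genes did, and 0 of 4 Mex3 genes held a MOL hotspot, where 22% of all genes did. Of the KLF transcription factors 3 of 16 held a PWD hotspot (18.8%, against 21.2% of all genes, and 0.411 hotspots per 100 kb, against 0.708), at Klf5, Klf9 (95.3) and Klf15 (49.9).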

How the data were processed

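Per the labels' protocols, thawed testis was fixed and DMC1-bound DNA was precipitated and sequenced by SSDS. The submitters' processing notes name the build mm10 and the tools CASAVA 1.8 and MACS2 2.0.10, without their settings, and no source used here gives the normalization of the score. The authors deposited 1 hotspot list per library with a strength score of 3 decimals, a few of them below 0, and 5 input samples without a list were not used. File starts were taken as counted from 0, and 1 was added for printing. Read depth is unknown, so no counting interval is given.

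Genes came from a RefSeq table of GRCm38.p6, whose primary assembly is that of mm10. For every autosomal hotspot of the 6 inbred lists (88090) the mean percentile in F1 crosses with and without its strain was compared by a two-sided exact permutation test, with Benjamini-Hochberg adjustment over all of them and a threshold of 0.05. The same test was run on the share of strength inside each of 10308 genes for 6 strains. The code was tested on simulated data. Python 3.11.15, numpy 2.4.6, pandas 2.3.3 and scipy 1.17.1 were used. The named genes were the 5 members, their neighbours, family members holding a hotspot among the strongest 10% of the strain's list, and the 2 genes most like each member; Gabrb2, Tpd52l1 and Klf15 were named after their values were seen. The members, gene families and tests were chosen with earlier results of these data known.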

Additional observations from a re-analysis of the deposited data

Results flagged for a closer look

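In 4 of the 17 groups of 4 to 10 crosses tested, the lowest cross stood far from the others by Dixon's criterion. Its rate of about 1 in 20 groups holds for independent groups of normally distributed values. Percentiles near 100 are not such values, and the groups share crosses, so 4 of 17 cannot be set against that rate. At the Epc1 place the percentile in C3HfX13Rm was 97.1, and the nearest of the other 5 crosses with C3H was at 99.5. At the Klf5 place PWDfX13Rm was at 89.6, and the nearest of the other crosses with PWD was at 98.8. Both have 13R as the father. At the Tpd52 place C3HfXCASTm was at 99.96 and the nearest cross with CAST at 99.99, a difference of a few ranks. Inside the Tpd52 gene, the hotspots of CASTfXMOLm held a share of 0, and the nearest cross with CAST held 0.0159% of the summed strength.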

How the results depend on the processing

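The place differences kept their direction and call under 8 of 8 alternatives at Epc1, Tpd52, Mex3c and Klf5 (highest adjusted p = 0.00456, exact permutation or Fisher's exact tests) and under 7 of 9 at Gabrb1. These covered centre distances of 200 and 1000 bp, any overlap, percentiles with X and Y, shares of strength, presence only, the strongest 5000 hotspots of each cross and 1 cross per reciprocal pair. At Gabrb1 they included, chosen after seeing the data, leaving out the 4 crosses of C3H with a strain other than B6 (89.0 points, adjusted p = 0.00356, exact permutation test). The Gabrb1 call was lost with 1 cross per pair (50.1 points, adjusted p = 0.107) and for presence (44.4 percentage points, adjusted p = 0.0824), within a range of 0.00356 to 0.107 over its alternatives by exact permutation or Fisher's exact tests.

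For genes, calls were lost for Epc1 by number of hotspots (0.00831 percentage points, adjusted p = 0.404) and without the strongest place (0.00210, adjusted p = 0.904), and for Tpd52 by number (0.00676, adjusted p = 0.0939) and with 1 cross per pair (0.0129, adjusted p = 0.122), all by the exact permutation test, and the cause was not tested. Without the strongest place the Gabrb1 gene difference turned to -0.00269 percentage points, and on shares the reciprocal difference at Gabrb1 turned to 0.000486.

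Leaving out each cross in turn, place differences ranged from 45.4 to 57.3 at Gabrb1, 96.8 to 99.4 at Epc1, 99.986 to 99.995 at Tpd52, 98.2 to 98.9 at Mex3c and 97.3 to 99.3 at Klf5. Gene differences ranged from 0.0151 to 0.0240 at Gabrb1, 0.0490 to 0.0673 at Epc1, 0.0119 to 0.0171 at Tpd52, -8.09e-05 to -7.47e-05 at Mex3c and 0.0358 to 0.0459 at Klf5, and leaving out each pair the reciprocal difference ranged from -1.71 to -0.973. By replicate number, no paired analysis was possible because each genotype has 1 library. The 5 reciprocal pairs, tested above, are paired by their parents. Absent hotspots are set to 0, and a hotspot under the calling threshold cannot be told apart from none.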
